A study of Mus musculus with 12 samples.

Results

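The genes described here are the metallothioneins Mt1 and Mt2, the metal-sensing transcription factor Mtf1, the zinc exporters Slc30a1 and Slc30a10, and the zinc importers Slc39a1, Slc39a4, Slc39a5, Slc39a7 and Slc39a10. They were chosen by symbol, and all 10 were found among the 55414 genes of the count table. They and the lists of related genes further on were chosen with earlier results of these data known. Counts and medians over them are therefore a description. RNAseq was performed on livers of adult female C57Bl/6J mice, aged 8 to 12 weeks, 3 mice in each of 4 groups. Mice received 300 mg/kg FeSO4 or 0.9% NaCl, and 6 h later 10 mg/kg dexamethasone (DEX, a synthetic glucocorticoid, GC) or PBS, both intraperitoneally. Livers were isolated 2 h after the second injection, 8 h after the first. The groups are named by both injections as NaCl/PBS, NaCl/DEX, FeSO4/PBS and FeSO4/DEX. No group was described as adrenalectomized, so that DEX was added to the GCs that the mice made themselves.

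Metallothioneins are small, cysteine-rich proteins of the cytosol that bind zinc and copper and scavenge radicals, and the liver is one of the tissues in which they are most strongly inducible. MTF1 binds metal response elements (MREs) in the promoters of Mt1, Mt2 and Slc30a1 when free zinc rises, and GCs and cytokines are known to induce Mt1 and Mt2 as well. Proteins of the SLC30 (ZnT) family move zinc out of the cytosol, into organelles or out of the cell, and SLC30A10 is best known as an exporter of manganese. Proteins of the SLC39 (ZIP) family move zinc and, for some members, iron and manganese into the cytosol.

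The promoters of the members carry MREs to different degrees. The windows from 250 bases before to 50 bases after each RefSeq start (GRCm38.p6 table) were searched on both strands for the MRE letters TGCACNC or TGCGCNC. Of 32851 windows, 25.7% held at least 1 match and 6.14% held matches in 2 or more separate places. Windows were found for 9 of the 10 members, and not for Slc39a4. Mt2 had matches in 4 places, Mt1 in 3, Slc30a1 and Slc30a10 in 2 each and Slc39a5 in 1, and the windows of Mtf1, Slc39a1, Slc39a7 and Slc39a10 held none. The places in Mt1, Mt2, Slc30a1 and Slc30a10 are printed because these 4 genes carried the strongest response to FeSO4. They are given on GRCm39 on the plus strand, which is the strand of all 4 genes, with the matched letters in capitals and 10 bases on each side. Matches on the minus strand are printed as their reverse complement, and at the first Slc30a10 place a match on each strand overlapped.
Mt1, chr8:94905684-94905710: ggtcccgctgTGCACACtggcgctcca
Mt1, chr8:94905709-94905735: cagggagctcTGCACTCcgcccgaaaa
Mt1, chr8:94905727-94905753: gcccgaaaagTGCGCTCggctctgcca
Mt2, chr8:94899013-94899039: gcatcgcctcTGCACCCggcccctcgg
Mt2, chr8:94899108-94899134: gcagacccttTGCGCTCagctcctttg
Mt2, chr8:94899186-94899212: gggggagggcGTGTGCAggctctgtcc
Mt2, chr8:94899240-94899266: aattcgggtcGTGCGCAggcccagggg
Slc30a1, chr1:191638840-191638866: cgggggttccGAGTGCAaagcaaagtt
Slc30a1, chr1:191638913-191638939: cctccgggccGAGCGCAgtcgccgcgg
Slc30a10, chr1:185186802-185186829: gtaggcagcgGTGCGCACacccactaca
Slc30a10, chr1:185186962-185186988: gacatcccaaTGCGCCCctcctcccag

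The window sets how near these places lie to the RefSeq starts, which can differ from the starts in GENCODE vM39. The Mt2 place 223 bases before its RefSeq start lies downstream of the GENCODE start of the gene, at 94898819. In GENCODE vM39 the matched letters fell wholly within a transcribed exon at 2 of the 3 Mt1 places, 2 of the 4 Mt2 places, both Slc30a1 places and neither Slc30a10 place. A GC response element, written as AGAACA and TGTTCT separated by 3 bases, was present in 0.00913% of all windows and in no window of a member. This form is so rare that its absence does not tell the members from other genes, and looser forms and other distances were not searched. The antioxidant response element letters TGACNNNGC were present in 12.4% of all windows and in those of Mt2, Slc30a1, Slc39a1 and Slc39a5. A match of letters is a description of the sequence, and binding was not measured.

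Between 16335651 and 23827340 reads per library were counted on genes (median 19602514), and no pair of mice of 1 group agreed within sampling noise. Normalized read counts were set to a common library size with TMM factors, and 13857 genes passed the filter on low counts, including all 10 members. A gene was called when its edgeR FDR (Benjamini-Hochberg adjusted p of the quasi-likelihood test) did not exceed 0.05. The p-values rest on the spread between these mice, with the variance of each gene drawn toward that of the other genes tested. For Mt1 a variance of 2 was used where its own was 3.07, and for Mt2 3.86 where its own was 6.3. The variance used was above the gene's own for Mtf1, Slc30a1 and Slc39a1, and below it for the other members. All log fold changes (LFCs) are on the log2 scale and carry their standard error (SE). Errors of means are SDs over 3 mice. In whole liver, fewer cells of a type and less RNA per cell cannot be told apart. CPM are reads relative to the library size after scaling by its TMM factor. The summed level of hepatocyte markers was 90136 to 108690 CPM in the NaCl/PBS mice and 113118 to 130034 in the FeSO4/PBS mice. Of these 6 markers, 3 were called higher and 0 lower in FeSO4/PBS against NaCl/PBS mice. The TMM factors were 1.14 to 1.16 and 0.896 to 0.952 in these groups, so that the scaling lowered the first levels and raised the second. Of unscaled counts, Alb took 8.63% to 10.7% in NaCl/PBS and 8.78% to 10.3% in FeSO4/PBS mice, and 8.63% to 10.8% over all libraries. Markers of other cells moved after FeSO4. The 5 neutrophil markers summed to 2.48 to 8.54 CPM in NaCl/PBS and 31.2 to 40.4 CPM in FeSO4/PBS mice, with 4 of 5 called higher and Ly6g near 0. The 6 macrophage markers summed to 262 to 319 and 151 to 172 CPM, with 5 of 6 called lower. The 5 endothelial markers summed to 213 to 240 CPM and 95.7 to 156 CPM, with 3 of 5 called lower. The 4 cholangiocyte markers summed to 4.50 to 5.33 and 14.3 to 33.3 CPM, with 1 called higher and 0 lower. The 5 stellate cell markers summed to 194 to 203 and 211 to 296 CPM, with 2 called higher and 1 lower. Their part in the results below was not tested.

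Per length of transcript, the metallothioneins stood far above the other members. In the NaCl/PBS mice, Mt1 averaged 451 ± 216 and Mt2 413 ± 311 normalized CPM per kilobase of the canonical transcript. Slc39a1 followed with 28.2, Slc39a4 with 15.6, Slc30a1 with 8.64, Slc30a10 with 4.96, Mtf1 with 1.84 and Slc39a7 with 1.45 CPM per kilobase. Slc39a10 with 0.54 and Slc39a5 with 0.437 CPM per kilobase were lowest, and the ranges of these 2 genes over the 3 mice overlapped, as did those of Mt1 and Mt2. After FeSO4, the order of the exporters and importers was changed, with Slc30a10 at 36.1, Slc39a1 at 24.5, Slc39a4 at 23.7 and Slc30a1 at 20.5 CPM per kilobase in the FeSO4/PBS mice. Over these mice the range of Slc39a4 overlapped those of Slc39a1 and of Slc30a1. Limits of counting touch these levels. On GENCODE vM39, 78.3% of the exon bases of Slc39a7 are shared with Gm20427 on the same strand, and the counter assigns no read that falls on bases of 2 genes, so that its level would be understated if the authors' annotation held Gm20427 too. Mt2 shares 82.4% of its exon bases with Gm45774 on the opposite strand, and Gm45774 had at most 67 reads in any library against at least 3155 for Mt2. Slc39a5, Slc39a7 and Slc39a10 had between 8 and 124 reads per library.

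To see the effect of acute iron overload on zinc handling, FeSO4/PBS mice were compared with NaCl/PBS mice. Of the 10 members, 5 were higher and 0 lower, where 27.2% of all genes tested were called higher and 27.3% lower. The genes that rose were Mt1, Mt2, Slc30a1, Slc30a10 and Slc39a4. The median LFC of the members was 0.48, against -0.02 for all genes tested.

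Mt1 lies on chromosome 8 from 94905710 to 94906955 (GRCm39, plus strand, here and below GENCODE vM39). Its normalized read count was 4347, 10499.9 and 5594 in NaCl/PBS mice 1, 2 and 3, against 77569, 51132 and 50032 after FeSO4. All FeSO4/PBS mice lay far above all NaCl/PBS mice, and NaCl/PBS mouse 2 was the highest of its group. This was an LFC of 3.13 ± 0.30 (SE, edgeR FDR 1.53e-06), an 8.75-fold rise.

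Mt2, its neighbour upstream (chromosome 8, 94898819 to 94900207, plus strand), had 2269, 11227 and 4848 normalized reads in the NaCl/PBS mice. The FeSO4/PBS mice had 77401, 55809 and 56357. The groups did not overlap, and NaCl/PBS mouse 2 was again highest in its group. The change had an LFC of 3.37 ± 0.42 (SE, edgeR FDR 1.59e-05), a 10.3-fold rise. Without NaCl/PBS mouse 2 it was 4.16, and without NaCl/PBS mouse 1 it was 2.98. Together both genes took 0.0386% to 0.125% of all counts in NaCl/PBS mice and 0.499% to 0.701% in FeSO4/PBS mice.

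**Figure D1:**
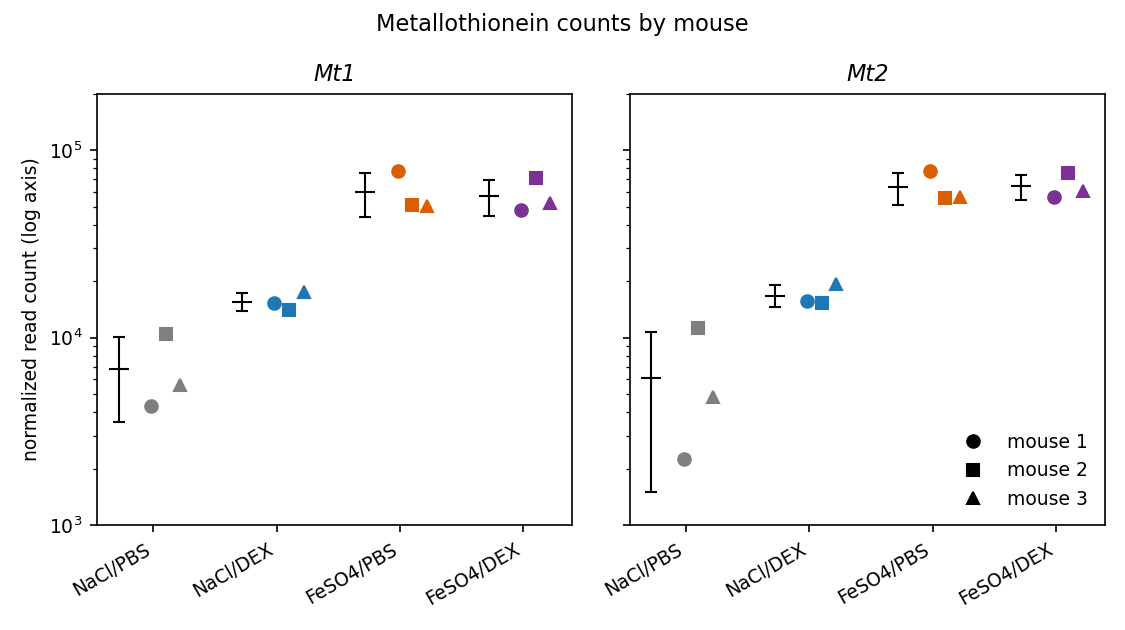
Normalized read counts of Mt1 (left) and Mt2 (right) on a log axis, by group. Each symbol is 1 mouse (circle, square and triangle for mice 1, 2 and 3), and the bar beside it is the group mean ± SD (n = 3). FeSO4/PBS mice sit between 50032 and 77569 for Mt1, NaCl/PBS mice between 4347 and 10499.9, and the NaCl/DEX mice between these groups.

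Mtf1 (chromosome 4, 124695897 to 124743593, plus strand) encodes the sensor that binds MREs. It had 280, 267 and 286 normalized reads in the NaCl/PBS mice, against 394, 312 and 293 in FeSO4/PBS mice. All FeSO4/PBS mice were above all NaCl/PBS mice, yet mouse 3 by little. The LFC of 0.26 ± 0.13 (SE) did not pass the test (edgeR FDR 0.0938). Without FeSO4/PBS mouse 3 it was 0.35 with an FDR of 0.0438 in edgeR's test. That was the only 1 of 12 fits, each leaving out 1 mouse, in which Mtf1 was called. Without FeSO4/PBS mouse 1 the LFC was 0.13 (edgeR FDR 0.373). Scaled by library size alone it was -0.06 (edgeR FDR 0.709).

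Both exporters rose. Slc30a1 (chromosome 1, 191638808 to 191645361, plus strand), the exporter of the plasma membrane, had 735, 977 and 999.6 normalized reads in NaCl/PBS mice 1 to 3. It had 2119, 2002 and 2312 in the FeSO4/PBS mice, so that the groups were well separated. Its LFC was 1.25 ± 0.12 (SE, edgeR FDR 1.65e-06), or 2.37-fold.

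Slc30a10 (chromosome 1, 185186973 to 185200959, plus strand) had 497, 646 and 598 normalized reads in the NaCl/PBS mice, against 4902, 3482 and 4280 in FeSO4/PBS mice. The groups were separated by a wide gap. The difference was an LFC of 2.86 ± 0.21 (SE, edgeR FDR 1.63e-07), or 7.28-fold, the lowest FDR of the members in this comparison.

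The importers moved less. Slc39a4 (chromosome 15, 76496580 to 76504172, minus strand), the importer needed for zinc uptake from the gut, had 750, 898 and 914 normalized reads in NaCl/PBS mice and 1444, 1245 and 1196 in FeSO4/PBS mice. The groups did not overlap, and the LFC was 0.60 ± 0.14 (SE, edgeR FDR 0.00206). Scaled by library size alone, the LFC was 0.28 and no longer passed the test (edgeR FDR 0.0752), with a median of -0.34 over all genes under that scaling.

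Slc39a1 (chromosome 3, 90155138 to 90160924, plus strand), a broadly expressed importer of the plasma membrane, had 1298, 1456 and 1213 normalized reads in NaCl/PBS mice and 1154, 1131 and 1169 in FeSO4/PBS mice. All FeSO4/PBS mice were below all NaCl/PBS mice, but the LFC of -0.20 ± 0.10 (SE) did not pass the test (edgeR FDR 0.118). Scaled by library size alone it was -0.52 and passed (edgeR FDR 0.0013).

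For Slc39a5, Slc39a7 and Slc39a10, the FeSO4/PBS and NaCl/PBS mice overlapped. Slc39a5 (chromosome 10, 128231799 to 128237121, minus strand), an importer of the basolateral membrane, had 6.77 to 24.3 and 13.1 to 29.3 normalized reads in NaCl/PBS and FeSO4/PBS mice. Slc39a7 (chromosome 17, 34247243 to 34250656, minus strand), which releases zinc from the endoplasmic reticulum, had 61.9 to 72.0 and 36.6 to 65.0. Slc39a10 (chromosome 1, 46845872 to 46964964, minus strand), another importer of the plasma membrane, had 55.0 to 89.2 and 53.4 to 75.3. At this depth the 95% intervals of their LFCs ran from -0.65 to 1.34 for Slc39a5, from -0.90 to 0.35 for Slc39a7 and from -0.67 to 0.51 for Slc39a10.

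**Figure D2:**
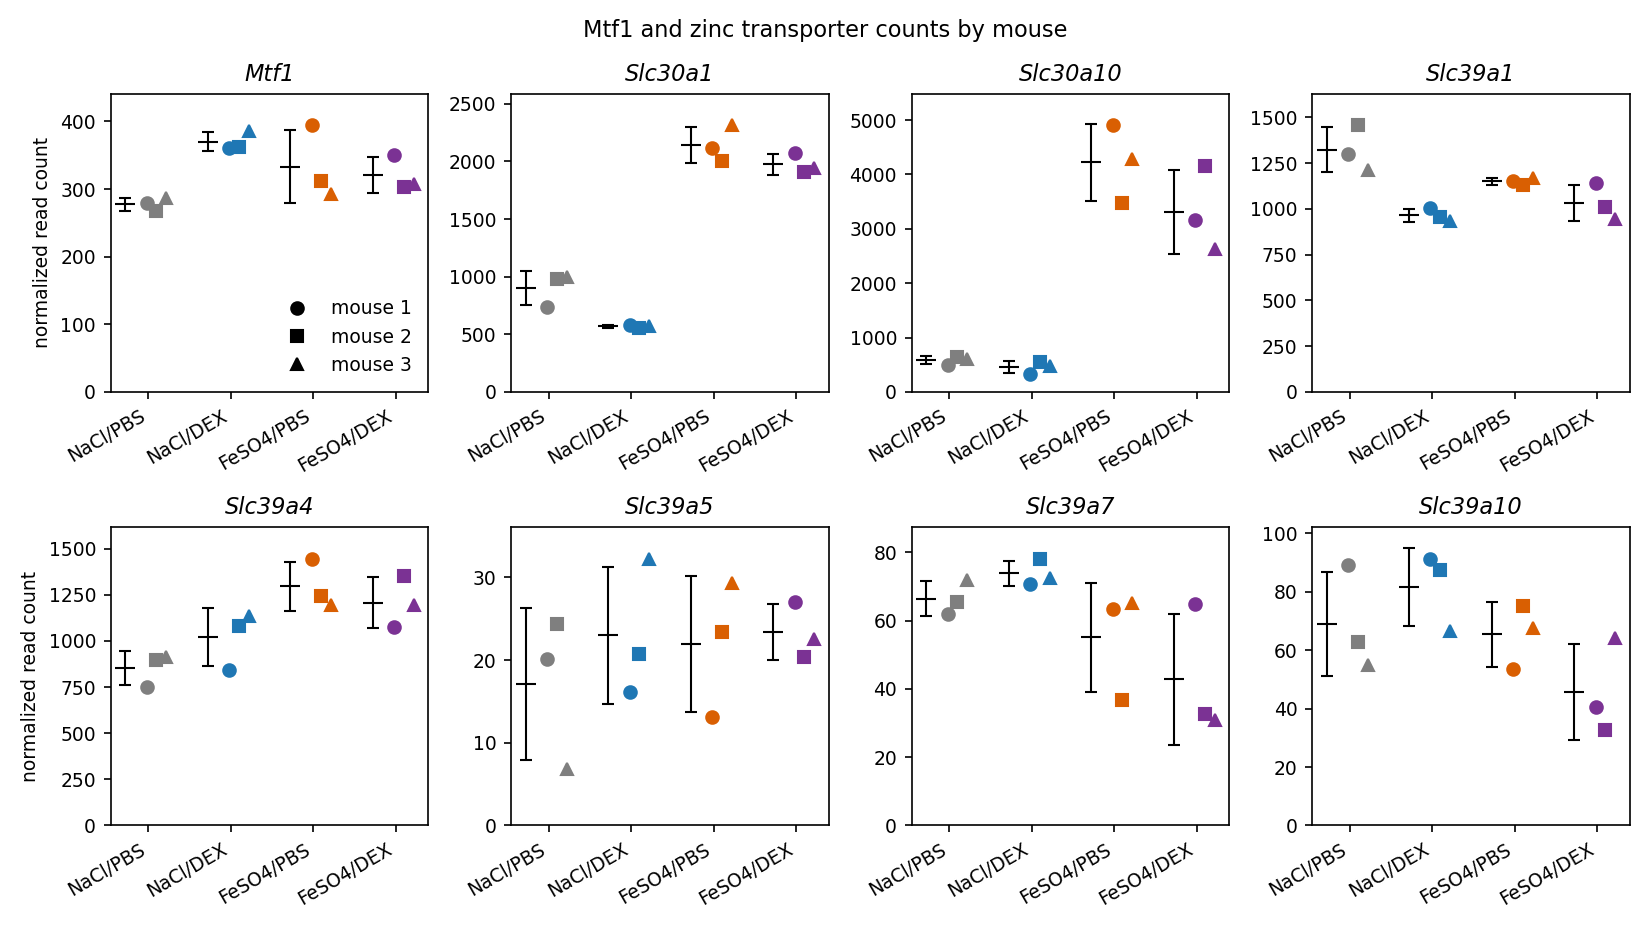
Normalized read counts of Mtf1 and the zinc transporters by group, with linear axes that start at 0. Each symbol is 1 mouse and the bar beside it is the group mean ± SD (n = 3). Slc30a10 and Slc30a1 are high in both FeSO4 groups, and Slc30a1 is lowest in the NaCl/DEX mice, at 558 to 580.

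To see the response to GC alone, NaCl/DEX mice were compared with NaCl/PBS mice, the control mice that the FeSO4 comparison also used. Of the 10 members, 3 were higher and 2 lower, where 6.5% of all genes tested were called higher and 7.15% lower. Mt1, Mt2 and Mtf1 rose, while Slc30a1 and Slc39a1 fell. The median LFC of the members was 0.25, against -0.02 for all genes.

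Mt1 had 15220, 14085 and 17426 normalized reads in NaCl/DEX mice 1, 2 and 3. All were above the highest NaCl/PBS mouse, at 10499.9, and all below the lowest FeSO4/PBS mouse, at 50032. Against the NaCl/PBS mice its LFC was 1.19 ± 0.28 (SE, edgeR FDR 0.0109). Without NaCl/PBS mouse 3 the FDR was 0.056 in edgeR's test, and the LFC ran from 0.96 without NaCl/PBS mouse 1 to 1.66 without NaCl/PBS mouse 2.

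Mt2 had 15648, 15360 and 19322 normalized reads in the NaCl/DEX mice, all above the NaCl/PBS mice. The change had an LFC of 1.46 ± 0.39 (SE, edgeR FDR 0.0229). The call was lost without NaCl/PBS mouse 3 (edgeR FDR 0.097) and without NaCl/DEX mouse 3 (edgeR FDR 0.0774), and the LFC ran from 1.07 without NaCl/PBS mouse 1 to 2.25 without NaCl/PBS mouse 2.

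Mtf1 had 361, 363 and 387 normalized reads in the NaCl/DEX mice and at most 286 in the NaCl/PBS mice. The groups did not overlap. The difference was an LFC of 0.41 ± 0.13 (SE, edgeR FDR 0.0437). This call was the least stable of the comparison. It was lost when any 1 of the 6 mice compared was left out (edgeR FDR 0.0877 to 0.141), without the filter on low counts, and when counts were scaled by library size alone.

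Slc30a1 had 580, 558 and 568 normalized reads in the NaCl/DEX mice, below all NaCl/PBS mice, the lowest of which had 735. This was an LFC of -0.67 ± 0.12 (SE, edgeR FDR 0.0019), and the call held when each of the 12 mice was left out in turn. Slc30a1 was thus called higher after FeSO4 and lower after DEX, against the same NaCl/PBS mice, whereas Mt1 and Mt2 were called higher after both. Slc30a10 had 333, 554 and 479 normalized reads. These overlapped the NaCl/PBS mice, and its LFC of -0.35 ± 0.20 (SE) did not pass the test (edgeR FDR 0.306).

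Slc39a1 had 1004, 956 and 936 normalized reads in the NaCl/DEX mice, below all NaCl/PBS mice. The change had an LFC of -0.45 ± 0.10 (SE, edgeR FDR 0.00952), and the FDR without NaCl/PBS mouse 2 was 0.0562 in edgeR's test. The other importers were not called. Their LFCs lay between 0.15 for Slc39a7 and 0.43 for Slc39a5, and the NaCl/DEX and NaCl/PBS mice overlapped for each. The endothelial markers summed to 146 to 179 CPM in these NaCl/DEX mice, below the NaCl/PBS mice, and the hepatocyte markers to 109079 to 126579 CPM, above the NaCl/PBS mice. The share of Alb in unscaled counts was 9.21% to 10.8%, overlapping the NaCl/PBS mice. The part of these markers in the rises and falls after DEX was not tested.

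To see whether DEX still acted under iron overload, FeSO4/DEX mice were compared with FeSO4/PBS mice. No member was called by edgeR in either direction, where 0% of all genes were called higher and 0% lower. Over the members, 0 had an unadjusted p under 0.05, and DESeq2 also called 0. Over all genes, 900 had an unadjusted p under 0.05 in edgeR's test, and DESeq2 called 5 higher and 5 lower.

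Mt1 had 47629, 71083 and 52101 normalized reads in FeSO4/DEX mice 1, 2 and 3, within or near the range of the FeSO4/PBS mice. Its LFC was -0.07 with a 95% interval from -0.66 to 0.52, and the upper bound lies below the LFC of 1.19 measured in NaCl mice, although the test of that difference, given further on, was not passed. Mt2 had 56307, 75239 and 60517. Its LFC was 0.02 with a 95% interval from -0.80 to 0.84.

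Slc30a1 had 2072, 1906 and 1943 normalized reads in the FeSO4/DEX mice, and they overlapped the FeSO4/PBS mice. The difference was an LFC of -0.12 with a 95% interval from -0.37 to 0.13. Slc30a10 had 3167, 4153 and 2631, with an LFC of -0.35 and an interval from -0.77 to 0.07. The LFC of Slc30a10 after DEX was thus -0.35 in NaCl mice and -0.35 in FeSO4 mice, and neither passed the test. The remaining members had LFCs between -0.51 for Slc39a10 and 0.11 for Slc39a5, and the groups overlapped for every member.

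The difference of the DEX responses was then tested itself, as the response in FeSO4 mice minus the response in NaCl mice. No member was called (edgeR FDR), where 2.99% of all genes tested were called higher and 3.2% lower, and DESeq2 called 1, Mt1. Of the members, 4 had an unadjusted p under 0.05 in edgeR's test. These were Mt1 with a difference of -1.26 ± 0.39 (SE, edgeR FDR 0.0759), Mt2 with -1.44 ± 0.54 (SE, edgeR FDR 0.147), Mtf1 with -0.47 ± 0.18 (SE, edgeR FDR 0.152) and Slc30a1 with 0.55 ± 0.17 (SE, edgeR FDR 0.0725). Mt1, Mt2 and Slc30a1 were each called in only 1 of 12 fits that left out 1 mouse. Without NaCl/PBS mouse 2, the control with the highest metallothionein counts, the difference was -1.73 for Mt1 (edgeR FDR 0.00405) and -2.24 for Mt2 (edgeR FDR 0.00254). Without NaCl/PBS mouse 1, the difference was -1.03 for Mt1, -1.06 for Mt2 and 0.66 for Slc30a1 (edgeR FDR 0.0266 for Slc30a1). Without NaCl/PBS mouse 3 it was 0.46 for Slc30a1. Over the 12 fits the edgeR FDR reached 0.172 for Mt1, 0.283 for Mt2 and 0.204 for Slc30a1.

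**Figure D3:**
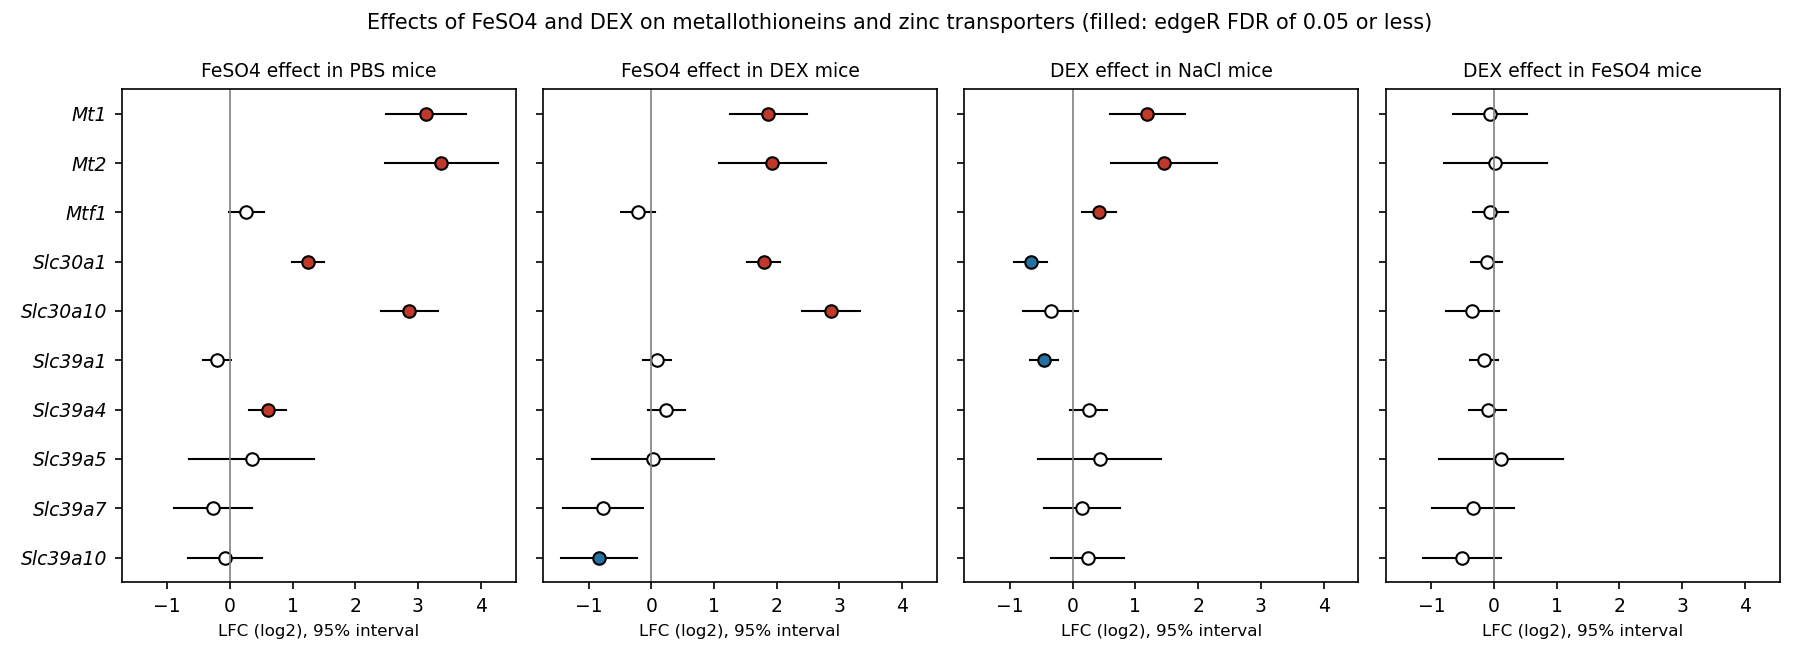
LFCs (log2, points) with 95% intervals (lines) of the 10 members in 4 comparisons, from the left FeSO4 in PBS mice, FeSO4 in DEX mice, DEX in NaCl mice and DEX in FeSO4 mice. Red points were called higher and blue points lower (edgeR FDR up to 0.05), and open points were not called. Mt1 and Mt2 are at 3.13 and 3.37 after FeSO4 in PBS mice, and every point is open for DEX in FeSO4 mice.

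The FeSO4 effect was also taken in the mice that received DEX, as FeSO4/DEX against NaCl/DEX. Of the members, 4 were higher and 1 lower, where 22.4% of all genes tested were called higher and 20.9% lower. Mt1 rose by an LFC of 1.87 ± 0.28 (SE, edgeR FDR 0.00013) and Mt2 by 1.93 ± 0.40 (SE, edgeR FDR 0.00134). Slc30a1 rose by 1.80 ± 0.12 (SE, edgeR FDR 1.36e-07) and Slc30a10 by 2.86 ± 0.21 (SE, edgeR FDR 3.01e-07). For these 4 genes the groups did not overlap, and each call held when any 1 of the 12 mice was left out.

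Slc39a10 fell after FeSO4 in the DEX mice. It had 91.2, 87.4 and 66.5 normalized reads in the NaCl/DEX mice and 40.6, 32.6 and 64.2 in the FeSO4/DEX mice. Mouse 3 of each group lay close to the other, and the LFC was -0.83 ± 0.28 (SE, edgeR FDR 0.029). The call was lost without FeSO4/DEX mouse 1 or 2 or NaCl/DEX mouse 1 or 2 (edgeR FDR 0.0782 to 0.092). Slc39a7 had 70.9, 78.0 and 72.5 normalized reads in NaCl/DEX mice and 64.8, 32.6 and 30.9 in FeSO4/DEX mice, without overlap. Its LFC of -0.76 ± 0.30 (SE) lay just outside the threshold (edgeR FDR 0.051). It passed with DESeq2 (adjusted p 0.0315), and with both other scalings and both other filters. Of 12 fits that each left out 1 mouse, it passed in only 3, with edgeR FDRs of 0.00533 to 0.162 over all of them. The 3 were without FeSO4/DEX mouse 1 (LFC -1.22, edgeR FDR 0.00533) or without mouse 1 or 2 of FeSO4/PBS, a group outside this comparison (edgeR FDR 0.0417 and 0.0353). Without FeSO4/DEX mouse 3 the LFC was -0.60. Slc39a4, called higher after FeSO4 in PBS mice, had an LFC of 0.24 ± 0.14 (SE) here and was not called (edgeR FDR 0.17).

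The balance of both metallothioneins was compared as the ratio of Mt2 to Mt1 reads within each library, which does not depend on the scaling between libraries. In the NaCl/PBS mice the ratio was 0.522, 1.07 and 0.867. In the NaCl/DEX mice it was 1.03, 1.09 and 1.11, in the FeSO4/PBS mice 0.998, 1.09 and 1.13, and in the FeSO4/DEX mice 1.18, 1.06 and 1.16. The spread was thus widest in the controls, where mouse 1, with the lowest metallothionein counts, also had the lowest ratio. With 3 mice against 3, a two-sided exact permutation test cannot go below p = 0.1. It gave p = 0.2 for FeSO4/PBS and for NaCl/DEX against NaCl/PBS, and p = 0.3 for both other comparisons of single treatments, with an adjusted p of 0.3 for all 4 (exact permutation test, Benjamini-Hochberg).

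Among the genes ranked, Mt1 and Mt2 also followed each other most closely over the 12 libraries. Genes without a symbol, or with a Rik or Gm name, were not ranked. For Mt1, the genes with the highest Pearson correlation of log2 CPM over the 12 libraries were Mt2 (r = 0.990), Api5 (0.990), Cops8 (0.988), Rrp12 (0.985) and Cebpd (0.985). For Mt2 they were Mt1 (0.990), Cebpd (0.988), Rasd1 (0.984), Igfbp1 (0.983) and Map3k6 (0.974). Cebpd is a transcription factor of the acute-phase response, Igfbp1 a secreted binding protein of insulin-like growth factors, and Api5 an inhibitor of apoptosis. The sizes of the responses differed within these groups, with a rise after FeSO4 of 12.3-fold for Cebpd and 24.4-fold for Igfbp1 but 1.47-fold for Api5. The 12 points fall into the 4 groups and share libraries and depth, so that r is given as a description. After the group means were removed, r between Mt1 and Mt2 was 0.93. For the other pairs named here it lay between 0.75 (Mt1 with Cebpd) and 0.89 (Mt2 with Cebpd).

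The remaining zinc transporters were described as a list of 17 genes, of which 14 passed the filter. After FeSO4 4 were higher and 4 lower, near the 27.2% higher and 27.3% lower of all genes tested, with a median LFC of -0.05 against -0.02 for all genes. Slc39a14, an importer of iron as well as zinc in hepatocytes, rose most. It had 5944, 9169 and 6108 normalized reads in NaCl/PBS mice and 37322, 36814 and 36780 in FeSO4/PBS mice, which did not overlap, and its LFC was 2.39 ± 0.18 (SE, edgeR FDR 2.24e-07). Slc39a6, an importer of the plasma membrane, rose by 1.62 ± 0.25 (SE, edgeR FDR 9.02e-05), from 48.3 to 74.8 normalized reads to 152 to 255. The exporters Slc30a4 and Slc30a5, of endosomes and the early secretory pathway, were called higher by 0.49 (edgeR FDR 0.018) and 0.41 (edgeR FDR 0.0272), with overlapping groups.

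Of the 4 that fell, Slc39a9 was the most tightly measured, at 1057 to 1133 normalized reads in NaCl/PBS and 607 to 618 in FeSO4/PBS mice, and its LFC was -0.84 ± 0.09 (SE, edgeR FDR 3.44e-06). Slc39a2 had 23, 28 and 35 reads in NaCl/PBS mice and 1, 1 and 2 in FeSO4/PBS mice (edgeR FDR 0.00044). From the summed reads it was 16.3-fold lower, with an exact Poisson 95% interval from 6.14 to 61.2 that covers counting error only. Slc30a6 and Slc39a3 fell by 0.45 and 0.42 on the log2 scale (edgeR FDR 0.0208 and 0.0273). Slc30a2, Slc30a8 and Slc39a12 had at most 5 reads in any library and were not tested. The other metallothioneins, Mt3 and Mt4, had at most 2 and 4 reads.

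After DEX in NaCl mice, edgeR called 0 of these 14 transporters, 2 of which had an unadjusted p under 0.05. Slc39a14 had an LFC of 0.53 ± 0.17 (SE, edgeR FDR 0.0602), with 9112 to 11438 normalized reads in NaCl/DEX mice against 5944 to 9169 in NaCl/PBS mice. In FeSO4/DEX mice it had 24136, 34429 and 26444 normalized reads, all below the FeSO4/PBS mice. The LFC of -0.38 ± 0.17 (SE) between these groups did not pass the test (edgeR FDR 0.762). The difference of the DEX responses of Slc39a14 was -0.91 ± 0.25 (SE, edgeR FDR 0.0431), and -0.80 with an FDR of 0.0541 in edgeR's test when counts were scaled by library size alone. This call was lost in 8 of 12 fits that each left out 1 mouse.

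Genes of copper handling were described because metallothioneins also bind copper. All 10 were tested, and 2 were higher and 3 lower after FeSO4, near the 27.2% higher and 27.3% lower of all genes tested. Atox1, which carries copper to the exporters, rose by 0.86 ± 0.16 (SE, edgeR FDR 0.000493), and Sod1, the copper-zinc superoxide dismutase, by 0.55 ± 0.14 (SE, edgeR FDR 0.00349). The uptake transporter Slc31a1 fell by 0.68 ± 0.11 (SE, edgeR FDR 0.00013) on the log2 scale. Its relative Slc31a2 fell by 2.23 ± 0.24 (SE, edgeR FDR 3.48e-06), and Atp7b, the exporter of hepatocytes, fell by 1.61 ± 0.17 (SE, edgeR FDR 3.9e-06). After DEX in NaCl mice, Slc31a2 (LFC -0.92, edgeR FDR 0.011) and Atp7b (LFC -0.61, edgeR FDR 0.0239) were again called lower and no gene higher, where 7.15% of all genes tested were called lower and 6.5% higher. In the FeSO4/DEX against the NaCl/DEX mice, 1 of the 10 was higher (Atox1) and 4 were lower, where 22.4% of all genes tested were called higher and 20.9% lower. The lower genes were Slc31a1, Slc31a2, Atp7b and Atp7a, the relative of Atp7b in most other tissues, with an LFC of -1.17 ± 0.30 (SE, edgeR FDR 0.00648) for Atp7a.

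Of 5 genes that have been linked to MTF1, 4 were higher after FeSO4 and 0 lower, where 27.2% of all genes tested were called higher and 27.3% lower. Gclc, the catalytic subunit of the first enzyme of glutathione synthesis, had an LFC of 1.65 ± 0.28 (SE, edgeR FDR 0.000243). Ndrg1, a stress-responsive gene, had 1.63 ± 0.16 (SE, edgeR FDR 1.84e-06), Hamp, the iron hormone hepcidin, 1.32 ± 0.33 (SE, edgeR FDR 0.0042) and Csrp1, a LIM protein, 1.09 ± 0.12 (SE, edgeR FDR 4.11e-06). Selenoh was not called. After DEX in NaCl mice, Ndrg1 alone of the 5 was called, with an LFC of 0.99 ± 0.16 (SE, edgeR FDR 0.000751). The difference of its DEX responses was -0.90 ± 0.22 (SE, edgeR FDR 0.0262), which was -0.77 with an FDR of 0.0731 in edgeR's test when counts were scaled by library size alone, and the call was lost in 7 of 12 fits that each left out 1 mouse.

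**Figure D4:**
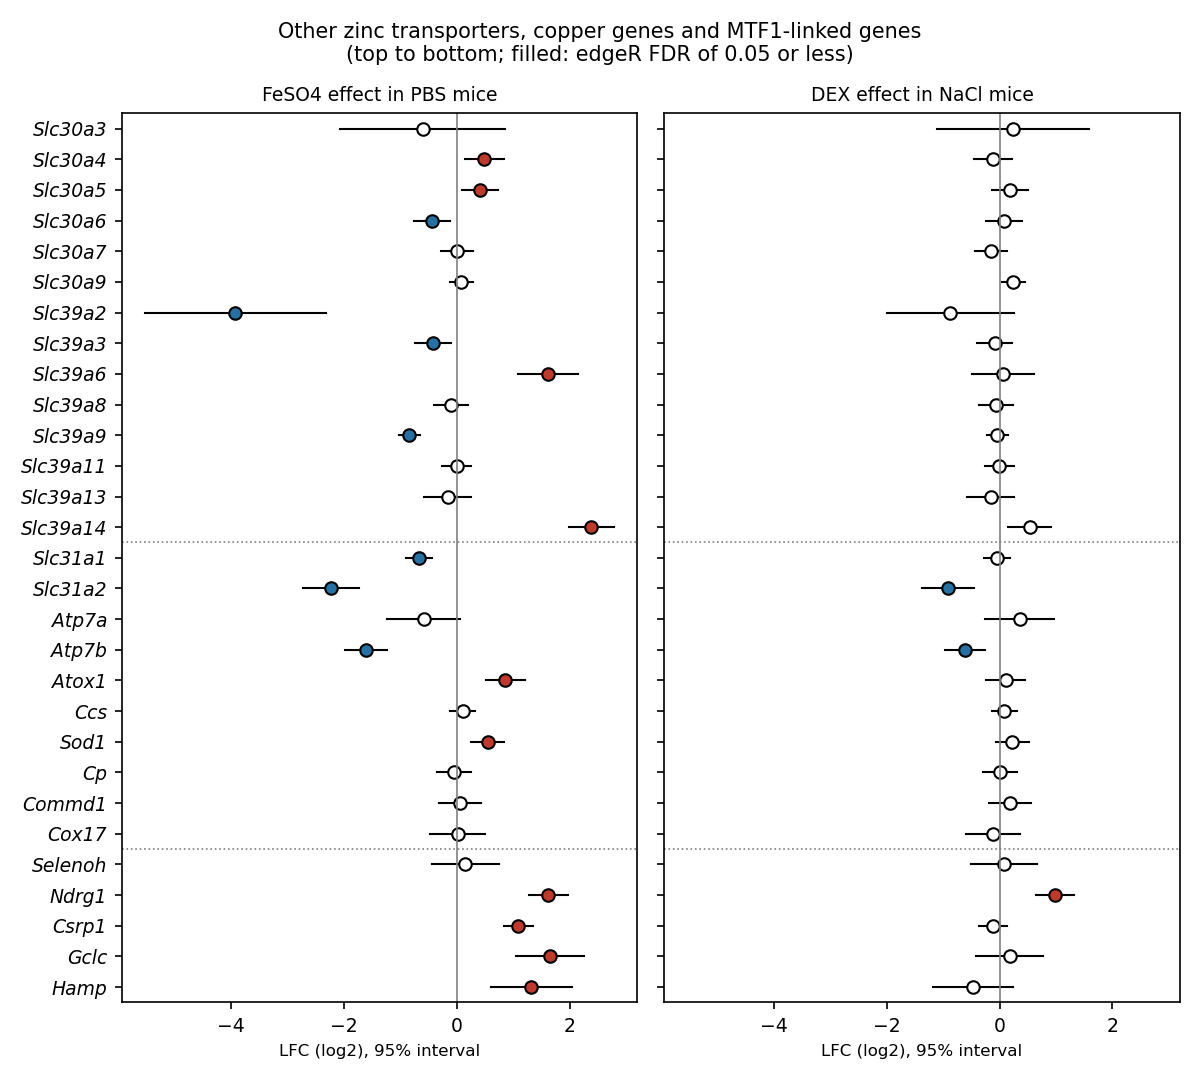
LFCs (log2, points) with 95% intervals (lines) after FeSO4 in PBS mice (left) and after DEX in NaCl mice (right), for the tested genes of 3 lists separated by dotted lines, which are other zinc transporters, genes of copper handling and MTF1-linked genes. Red points were called higher and blue points lower (edgeR FDR up to 0.05), and open points were not called. Slc39a14 is at 2.39 after FeSO4, and Slc31a2, Atp7b and Ndrg1 are filled after DEX.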

How the data were processed

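Livers of 12 mice were analysed, with 1 library per mouse. The authors prepared stranded mRNA libraries, mapped single-end reads to mm39 with STAR 2.7.10b and counted them per gene with its GeneCounts option, per the paper's methods and the submitters' processing notes. The strand column used is not given in the sources used here. The deposited values are raw counts for 55414 Ensembl genes. Symbols and coordinates came from GENCODE vM39 (GRCm39, the assembly of mm39), a later annotation than the authors used.

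From these counts, edgeR 4.0.16 (R 4.3.3) fitted group means by quasi-likelihood in 1 model to the 13857 genes kept by its filter, with TMM factors of 0.871 to 1.159 and a prior count of 0.125. P-values were adjusted over all genes tested. The biological coefficient of variation was 0.169. For genes with few reads, such as Slc39a5 and Slc39a2, counting error adds to it. The labels give separate samples and do not name animals. DESeq2 1.42.0 was an alternative, as were other scalings, filters, a replicate block, the compared libraries alone, a minimum LFC of 1 and leaving out each mouse. The model was also run on simulated data in which few genes changed, unlike the data here, and no result rests on that run. Promoters came from RefSeq and were placed on GRCm39 by exact match. Figures used matplotlib.

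All members, every called gene of the lists, and the 5 genes most correlated with Mt1 and with Mt2, other than Rik and Gm genes, were named. Members and lists were chosen with earlier results of these data known. Marker lists of lymphocytes (2.17 to 4.36 CPM in NaCl/PBS and 2.57 to 3.28 in FeSO4/PBS), stellate cells (194 to 203 and 211 to 296), cholangiocytes (4.50 to 5.33 and 14.3 to 33.3), pancreatic acinar cells (0.508 to 0.855 and 0.411 to 0.579) and red blood cells (64.1 to 146 and 113 to 221) were also summed.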

Additional observations from a re-analysis of the deposited data

Results flagged for a closer look

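For 2 genes of the lists, the response to DEX differed between FeSO4 and NaCl mice by the test of the difference itself. They were 1 of 14 other zinc transporters and 1 of 5 MTF1-linked genes, with 0 of 10 copper genes. Of all genes tested, 2.99% were called higher and 3.2% lower for this difference, so that the count is no result about the lists. For Slc39a14 the difference was -0.91 ± 0.25 (SE, edgeR FDR 0.0431), and over 12 fits that each left out 1 mouse the FDR ran from 0.00572 to 0.108, with the call lost in 8. For Ndrg1 it was -0.90 ± 0.22 (SE, edgeR FDR 0.0262), and over the same fits the FDR ran from 0.0117 to 0.0738, with the call lost in 7. Both differences were negative in all of these fits. No member had such a difference in the fit reported.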

How the results depend on the processing

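Of 985 values of single members under the alternatives, 943 had the same outcome as in the fit reported. Most of these were called in neither fit, so that 943 does not measure how stable the calls were. A call was lost by 23 values and gained by 19. None reversed a call, and 29 changed sign without being called in either fit. Leaving out 1 mouse at a time gave 5 to 6 members called after FeSO4 in PBS mice, 2 to 5 after DEX in NaCl mice, 0 after DEX in FeSO4 mice, 4 to 6 after FeSO4 in DEX mice and 0 to 2 for the difference of the DEX responses. After DEX in NaCl mice, 2 were called without NaCl/PBS mouse 3, and 3 without NaCl/PBS mouse 2 or NaCl/DEX mouse 3. With a minimum LFC of 1, 2 members were called after DEX in NaCl mice. For the difference of the DEX responses, 1 was called with library size alone (Slc30a1), 1 with DESeq2 (Mt1) and 2 without a filter on low counts (Mt1 and Mt2). In the last fit the prior degrees of freedom became infinite, so that the spread of the gene itself had no weight. For Mt2 a variance of 0.595 was used where its own was 6.7, against 3.86 with the filter.

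Scaling by library size alone moved the median LFC of all genes to -0.34 after FeSO4 in PBS mice, -0.18 after DEX in NaCl mice, -0.18 after FeSO4 in DEX mice and 0.15 for the difference. The share of called genes that were higher was then 28.2%, 25.8%, 34.2% and 63.7%, against 49.9%, 47.6%, 51.7% and 48.3% with TMM. Under it the lists of other zinc transporters and of MTF1-linked genes had 0 calls for the difference, each losing 1.

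Same-numbered mice of different groups did not deviate together. Over 18 pairs, r of their deviations lay between -0.0919 and 0.1292, and 2 were over 0.1, so that numbers were not taken to pair the mice. With the replicate block, 5, 4, 0, 6 and 0 members were called in the 5 comparisons, against 5, 5, 0, 5 and 0 without it. The block lost Mtf1 after DEX in NaCl mice (LFC 0.42, edgeR FDR 0.0542) and gained Slc39a7 after FeSO4 in DEX mice (LFC -0.81, edgeR FDR 0.048). The log2 ratio of Mt2 to Mt1 differed by 0.45 between FeSO4/PBS and NaCl/PBS mice, and by 0.15 without NaCl/PBS mouse 1.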
